A study of Homo sapiens with 3 samples.

Results

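The genes described here are 10 genes of triglyceride synthesis, lipid droplets and lipolysis: GPAM, AGPAT2, LPIN1, DGAT1, DGAT2, PLIN2, PLIN3, PNPLA2, LIPE and MGLL. They were chosen by name, with earlier results of these data known. They are 10 of the 19775 genes that the Human Genome U133 Plus 2.0 Array reads with probe sets annotated to exactly 1 gene. Their 19 probe sets were measured on 3 arrays, each of HCT-116, a line of human colorectal cancer cells. The groups were SCD1-WT cells given 100 nM T-3764518, an inhibitor of the desaturase SCD1, for 24 h; SCD1-KO cells, in which part of the SCD1 gene had been removed with CRISPR-Cas9; and SCD1-WT cells treated with DMSO for 24 h. By the study's text the SCD1-KO cells also received DMSO, but their labels name neither a vehicle nor a time. SCD1-KO cells were grown from selected clones, and whether the array held 1 clone or several is not stated. Each group had 1 array, so no difference between groups has a replicate check, no p-value was computed, and every ratio below is a description of these arrays.

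Cells store fatty acids as triglycerides. Acyl chains are added stepwise to glycerol 3-phosphate by GPAT and AGPAT enzymes, lipins remove the phosphate, and DGAT1 or DGAT2 adds the last acyl chain. The triglycerides are kept in lipid droplets coated by perilipins, from which the lipases ATGL, hormone-sensitive lipase and monoacylglycerol lipase release the acyl chains in turn. Oleoyl-CoA, which SCD1 makes from stearoyl-CoA, is a common acyl donor for these enzymes, and droplets are known to buffer cells against saturated fatty acids.

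LPIN1, a phosphatidate phosphatase of this pathway, gave a higher signal under T-3764518, and also in SCD1-KO cells, than under DMSO. MGLL, the monoacylglycerol lipase, was 2.08-fold higher and DGAT2 2.46-fold lower under T-3764518, while neither was 2-fold changed in SCD1-KO cells. LIPE, the hormone-sensitive lipase, gave a lower signal in both, close to the lower end of what was analysed. The other 6 genes were under 2-fold in both ratios. The values are MAS5 signals, the scaled brightness of a probe set in arbitrary units. A probe set was kept if its log2 signal, averaged over the arrays, was no lower than that of the median probe set, which is a signal of 56.6. This kept 17 of the 19 probe sets and all 10 genes, 4 of which (DGAT1, PLIN3, PNPLA2 and LIPE) were read by 1 kept probe set. A gene's value is the median over its kept probe sets of the log2 ratio, and genes are called higher or lower at 2-fold. Beside the ratios stands the SD of the log2 ratio between probe sets of the same gene, pooled over genes of a similar signal. It measures how far such probe sets differ, and covers neither differences between cultures nor an error shared by a whole array. In bulk RNA, fewer cells with a transcript and less of it per cell cannot be told apart.

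**Figure D1:**
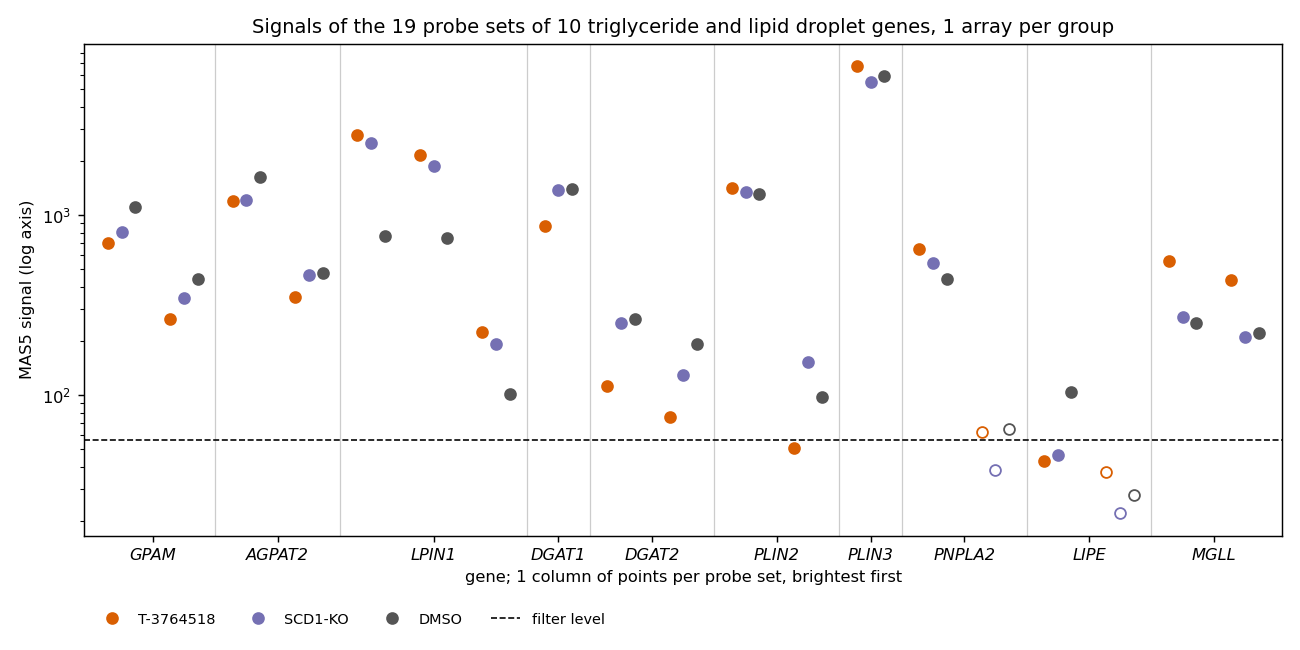
MAS5 signal (log axis) of each of the 19 probe sets, with 1 point per array: SCD1-WT cells treated with T-3764518, SCD1-KO cells and SCD1-WT cells treated with DMSO. Open points are probe sets that the filter left out, and the dashed line is the filter level of 56.6; the 3 LPIN1 probe sets have their lowest point under DMSO, and both DGAT2 and both GPAM probe sets have theirs under T-3764518.

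The arrays had the same mean signal after trimming (500.1), and medians of 56.7 under T-3764518, 62.4 in SCD1-KO cells and 68.8 under DMSO. The 4 probe sets of SCD, which encodes SCD1, had signals from 6908 to 39350 under T-3764518, from 1965 to 24119 in SCD1-KO cells and from 834 to 23841 under DMSO; the removed part of the gene is not placed on them, so they do not check the knockout. None of 7 tested housekeeping genes was 2-fold changed in either ratio. Of 8 colon epithelial markers, 8 were above a signal of 56.6 under T-3764518, 7 in SCD1-KO cells and 8 under DMSO, but CDX2, VIL1 and LGALS4 were at most 115. EPCAM had signals of 17224 under T-3764518, 6840.1 in SCD1-KO cells and 16859 under DMSO, and CDH1 had signals of 6686, 1285 and 5038 in the same order. Of 5 adipocyte markers, PLIN1, FABP4, ADIPOQ and LEP stayed under 56.6 on every array and CIDEC did not. The fibroblast list had 2 of 5 markers above that level on each array and the leukocyte list 1 of 2. The part of these differences in the results below was not tested. Of 12321 tested genes, 269 were higher and 407 lower under T-3764518, and 385 were higher and 484 lower in SCD1-KO cells. This split moved with the scaling. Under T-3764518 it was 551 higher and 163 lower after scaling to 1 median, 363 and 262 after quantile normalization, and 365 and 244 after a lowess correction, and in SCD1-KO cells it was 571 higher and 365 lower after scaling to 1 median. Between T-3764518 and SCD1-KO cells 382 genes were higher and 557 lower, against 535 and 393 after scaling to 1 median, 453 and 398 after quantile normalization, and 479 and 421 after the lowess correction.

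GPAM, the mitochondrial GPAT that adds the first acyl chain to glycerol 3-phosphate, was read by 2 probe sets. The brighter had a signal of 701 under T-3764518, 809.7 in SCD1-KO cells and 1103 under DMSO, and the other had 266, 345 and 442 in the same order. Both probe sets had their highest signal under DMSO and their lowest under T-3764518. The log2 ratio of the gene was -0.69 under T-3764518 and -0.40 in SCD1-KO cells (SD between probe sets 0.37 for each), so it lay beyond 1 SD in both and under 2-fold in both. After scaling to 1 median GPAM was at -0.41 under T-3764518 and at -0.26 in SCD1-KO cells, the latter within 1 SD. AGPAT2, which adds the second acyl chain to make phosphatidate, is known as a gene of congenital lipodystrophy. Its brighter probe set had a signal of 1193 under T-3764518, 1214 in SCD1-KO cells and 1636 under DMSO, and the other had 352, 465 and 477. Both were lowest under T-3764518, but in SCD1-KO cells the second was within 1.03-fold of its DMSO signal. The gene's log2 ratio was -0.45 under T-3764518 and -0.23 in SCD1-KO cells (SD 0.31 for each). After scaling to 1 median AGPAT2 was at -0.17 and -0.09 in the same order.

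LPIN1 encodes lipin 1, which turns phosphatidate into diacylglycerol and also acts in the nucleus as a transcriptional coregulator. Its brightest probe set had a signal of 2796 under T-3764518, 2503 in SCD1-KO cells and 763 under DMSO. The second had 2149.8 under T-3764518, 1879 in SCD1-KO cells and 743 under DMSO, and the dimmest 225, 192 and 102. All 3 probe sets gave the same order, highest under T-3764518 and lowest under DMSO. Their log2 ratios were 1.87, 1.53 and 1.15 under T-3764518, and 1.71, 1.34 and 0.92 in SCD1-KO cells, so the brighter the probe set the larger the ratio. By its median the gene was 2.89-fold higher under T-3764518, the rank 93 from the top of 12321 genes. In SCD1-KO cells it was 2.53-fold higher, the rank 184 (SD between probe sets 0.31 for each on the log2 scale). Between T-3764518 and SCD1-KO cells the log2 ratio was 0.19, less than the SD between probe sets of 0.32. LPIN1 is also known as a target of the sterol-regulated factor SREBP. LPIN2, its paralog, had log2 ratios of -0.05 under T-3764518 and -0.04 in SCD1-KO cells.

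Since LPIN1 was the member called in both ratios on probe sets above the filter level on every array, the bases before its start sites are shown, beside those of PNPLA2, which held the only match to a sterol response element among the members. Promoters from RefSeq (GRCh38.p14) were used for 7 of the 10 genes, in 10 windows because LPIN1 has 3 start sites and LIPE 2 among those used. The promoters of DGAT1, DGAT2 and MGLL were not analysed here. Each window is the 250 bases before a start site, 5′ to 3′ on the gene's strand, which is the plus strand for both. Capitals mark matches, on either strand, to 6 motifs, and no matches overlap in these windows. The sterol response element was searched as TCACNCCAC and the E-box as CACGTG. The CCAAT box was searched by those letters and the GC box as GGGCGG. The antioxidant response element was searched as TGACNNNGC and the cyclic AMP response element as TGACGTCA.
LPIN1, chr2:11677294-11677543: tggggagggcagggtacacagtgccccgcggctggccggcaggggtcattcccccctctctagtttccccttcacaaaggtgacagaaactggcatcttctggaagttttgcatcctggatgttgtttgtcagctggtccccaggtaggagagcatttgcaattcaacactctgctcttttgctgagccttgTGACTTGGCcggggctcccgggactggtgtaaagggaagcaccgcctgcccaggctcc
LPIN1, chr2:11724065-11724314: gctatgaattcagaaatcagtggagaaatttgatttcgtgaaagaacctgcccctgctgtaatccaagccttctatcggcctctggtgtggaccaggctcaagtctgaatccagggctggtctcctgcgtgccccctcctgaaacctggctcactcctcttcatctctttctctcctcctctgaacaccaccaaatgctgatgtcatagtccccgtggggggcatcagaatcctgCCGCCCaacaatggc
LPIN1, chr2:11746382-11746631: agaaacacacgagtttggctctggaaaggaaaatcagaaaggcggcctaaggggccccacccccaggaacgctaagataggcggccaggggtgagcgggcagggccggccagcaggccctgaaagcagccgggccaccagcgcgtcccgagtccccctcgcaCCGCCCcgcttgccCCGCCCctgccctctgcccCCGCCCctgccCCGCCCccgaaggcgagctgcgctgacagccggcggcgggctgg
PNPLA2, chr11:818664-818913: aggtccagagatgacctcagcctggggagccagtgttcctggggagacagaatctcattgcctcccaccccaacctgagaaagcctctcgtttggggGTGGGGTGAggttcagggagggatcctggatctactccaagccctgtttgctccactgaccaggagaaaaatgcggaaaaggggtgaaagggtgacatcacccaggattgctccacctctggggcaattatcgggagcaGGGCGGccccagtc
The window at the first LPIN1 start held 1 match, to the antioxidant response element, 58 to 50 bases before the start. The second held 1 GC box and the third 4, between 88 and 39 bases before the start. The PNPLA2 window held the sterol response element on the other strand 153 to 145 bases before the start, and 1 GC box. Of all 35116 windows of this length, 0.883% held the sterol response element, 6.34% the E-box, 32.0% the CCAAT box, 42.6% the GC box, 10.9% the antioxidant response element and 1.65% the cyclic AMP response element. Among the 7 members, 7 held a GC box, 2 a CCAAT box, 2 an antioxidant response element, 1 an E-box, 1 a sterol response element and 0 a cyclic AMP response element in at least 1 window. The counts are per gene, with 3 windows for LPIN1 and 2 for LIPE, and the shares are per window. They are therefore not comparable. A match is a description of these letters, and no match says only that they are not in this window.

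DGAT1 and DGAT2, unrelated enzymes that both add the last acyl chain of a triglyceride, differed in their ratios. The DGAT1 probe set had a signal of 875 under T-3764518, 1378 in SCD1-KO cells and 1401 under DMSO. It was lower under T-3764518 and within 1.02-fold of the DMSO signal in SCD1-KO cells, with log2 ratios of -0.68 (SD between probe sets 0.31) and -0.02 (SD 0.31). The brighter DGAT2 probe set had 112 under T-3764518, 253 in SCD1-KO cells and 264 under DMSO, and the other had 75.4, 130 and 193. Both DGAT2 probe sets had their lowest signal under T-3764518, at log2 ratios of -1.24 and -1.36. The gene was 2.46-fold lower under T-3764518 (log2 ratio -1.30, SD 0.45), the rank 153 from the bottom of 12321 genes. In SCD1-KO cells the DGAT2 probe sets did not give 1 value, at log2 ratios of -0.07 and -0.57, and the gene's ratio was -0.32 (SD 0.46). Set directly against SCD1-KO cells, cells treated with T-3764518 had a log2 ratio of -0.65 for DGAT1 and -0.98 for DGAT2, each larger than the SD between probe sets of 0.32 and 0.48 and each under 2-fold, though DGAT2 read by its brightest probe set alone was at -1.17.

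PLIN2, the perilipin found on droplets of most cell types, depended on the probe set. The brighter one had signals of 1409.9 under T-3764518, 1344 in SCD1-KO cells and 1312 under DMSO, and its log2 ratios were 0.10 and 0.03. The dimmer one, of a design that can match several genes, had 50.8 under T-3764518, 152 in SCD1-KO cells and 97.4 under DMSO, at log2 ratios of -0.94 and 0.64. So the bright probe set was nearly level over the 3 arrays and the dim one was low under T-3764518 and high in SCD1-KO cells. The gene's median, -0.42 under T-3764518 and 0.34 in SCD1-KO cells (SD 0.37 for each), lies between probe sets that do not give 1 direction under T-3764518. PLIN3, a perilipin that moves from the cytosol to new droplets, had a signal of 6705 under T-3764518, 5498 in SCD1-KO cells and 5956 under DMSO. It was the highest under T-3764518 and the lowest in SCD1-KO cells, but its log2 ratios of 0.17 (SD 0.25) and -0.12 (SD 0.24) were both smaller than the SD between probe sets. After scaling to 1 median they were 0.45 and 0.02, with the sign turned in SCD1-KO cells.

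PNPLA2 encodes ATGL, the lipase that takes the first acyl chain from a triglyceride. Its kept probe set had a signal of 651 under T-3764518, 545 in SCD1-KO cells and 444 under DMSO. This was highest under T-3764518, at a log2 ratio of 0.55 (SD 0.37) against 0.30 in SCD1-KO cells (SD 0.37). A dimmer probe set that the filter left out had 62.3 under T-3764518, 38.5 in SCD1-KO cells and 65.0 under DMSO and did not show this order. LIPE encodes the hormone-sensitive lipase, which acts mainly on diacylglycerol. Its kept probe set had a signal of 43.2 under T-3764518, 46.8 in SCD1-KO cells and 105 under DMSO, so only the DMSO signal was above the filter level and carried it past the filter. The probe set was therefore bound to be lower in the other groups. With the low signals raised to 56.6, LIPE was at least 1.85-fold lower in both, where the signals as deposited gave 2.43-fold under T-3764518 and, in SCD1-KO cells, 2.24-fold. Its second probe set was under the filter on every array, at 37.6 under T-3764518, 22.1 in SCD1-KO cells and 28.1 under DMSO, with log2 ratios of 0.42 and -0.35. The LIPE call thus rests on 1 signal, that of the DMSO array.

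MGLL, which releases the last acyl chain from monoacylglycerol, was higher under T-3764518 and near its DMSO level in SCD1-KO cells. Its brighter probe set had a signal of 556 under T-3764518, 273 in SCD1-KO cells and 253 under DMSO. The other had 436 under T-3764518, 212 in SCD1-KO cells and 221 under DMSO. In both probe sets the T-3764518 array stood apart from the other arrays, which were within 1.08-fold of each other. The log2 ratios under T-3764518 were 1.14 and 0.98, so 1 of the 2 was past 2-fold by itself, and the gene's median was 1.06 (SD 0.45), the rank 242 from the top. In SCD1-KO cells the gene's ratio was 0.03 (SD 0.46). Set directly against SCD1-KO cells, MGLL was 2.05-fold higher under T-3764518 (log2 ratio 1.03, SD 0.48), the only one of the 10 genes called in that comparison, though at 0.98 with an offset added to the signals. There 3.10% of all genes were called higher and 4.52% lower.

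**Figure D2:**
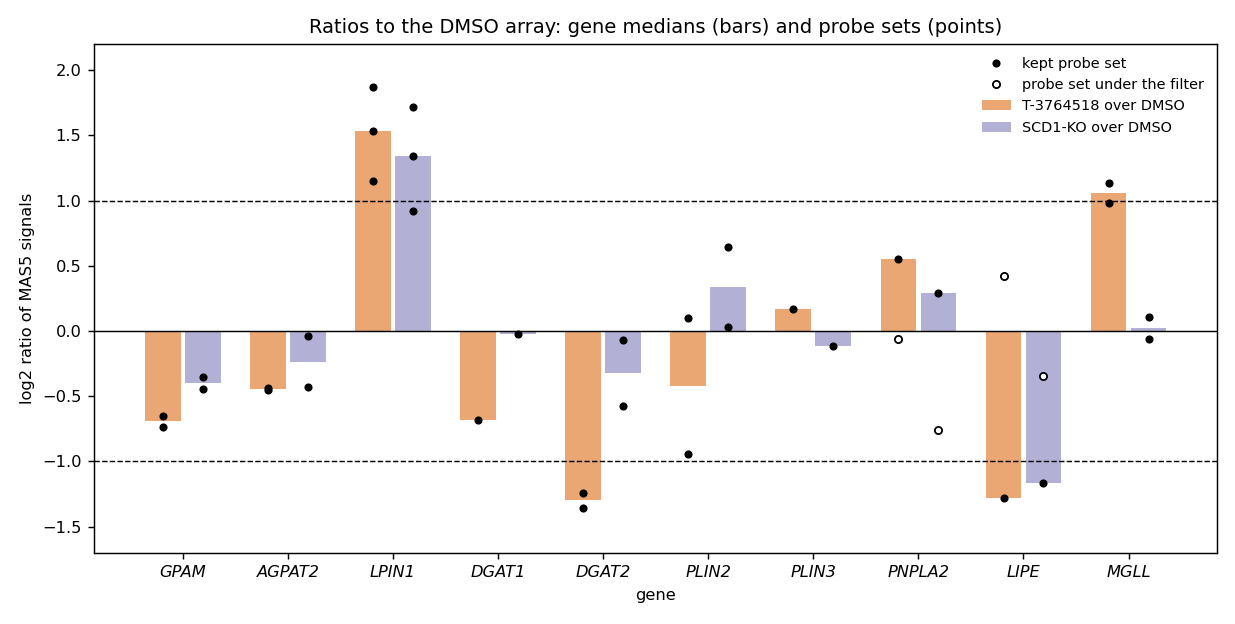
Log2 ratio of MAS5 signals to the DMSO array, for T-3764518 and for SCD1-KO cells; bars are gene medians, filled points are kept probe sets, open points are probe sets that the filter left out, and dashed lines mark 2-fold. LPIN1 is past 2-fold in both ratios, at 1.53 and 1.34, MGLL only under T-3764518 at 1.06, and the PLIN2 probe sets lie on both sides of 0 under T-3764518.

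In all, 2 of the 10 genes were called higher under T-3764518 (LPIN1 and MGLL), where 2.18% of all tested genes were, and 2 were called lower (DGAT2 and LIPE), where 3.30% were. In SCD1-KO cells 1 was called higher (LPIN1), against 3.12% of all genes, and 1 lower (LIPE), against 3.93%. With 10 genes a single call is already a larger share than these, and the genes were chosen with earlier results of these data known. The LIPE calls were also set by the filter. Nothing is therefore read about the group from the counts in any of the ratios. At 1.5-fold, 2 of the 10 genes were higher and 4 lower under T-3764518, against 6.62% and 12.3% of all genes. In SCD1-KO cells 1 was higher and 1 lower at that threshold, against 9.95% and 11.4%, and between T-3764518 and SCD1-KO cells 1 was higher and 3 lower, against 9.08% and 14.2%. The median log2 ratio of the 10 genes was -0.43 under T-3764518, where that of all tested genes was -0.09, and -0.07 in SCD1-KO cells, where that of all genes was -0.01. Neither sign held over the settings: under T-3764518 the median was 0.10 with the filter at percentile 75 and 0.33 without probe sets marked _s_at or _x_at, and in SCD1-KO cells it was 0.07 without those probe sets and also after scaling to 1 median. Both ratios share the DMSO array, so a value that was off on that array moves both. All 4 enzymes that add acyl chains (GPAM, AGPAT2, DGAT1 and DGAT2) had log2 ratios below 0 in both ratios, from -1.30 to -0.45 under T-3764518 and from -0.40 to -0.02 in SCD1-KO cells, except that DGAT1 in SCD1-KO cells was at 0.12 after scaling to 1 median. Of these 8 ratios 1 was 2-fold. Of all 12321 tested genes, 7268 were below 0 under T-3764518 and 6297 in SCD1-KO cells, so nothing is read from the shared sign. Among the lipases, PNPLA2 and MGLL were above 0 in both ratios, except that PNPLA2 in SCD1-KO cells was at -0.23 when its dim probe set was let in. MGLL in SCD1-KO cells was at 0.03 (SD 0.46), with probe sets on both sides of 0, at 0.11 and -0.06. LIPE was below 0 in both ratios, but its kept probe set passed the filter only through its DMSO signal, as given above. Without the filter LIPE was at -0.43 under T-3764518 and at -0.75 in SCD1-KO cells. Those values still include that probe set, so nothing is read from the sign.

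A further 47 genes of glycerolipid synthesis and droplets were listed by function, of which 31 passed the filter, 12 had no probe set kept by it and 4 had none annotated to 1 gene. Of the 31 tested, 1 was higher and 2 lower under T-3764518, and 0 were higher and 1 lower in SCD1-KO cells. Of all tested genes, 2.18% were higher and 3.30% lower under T-3764518, and 3.12% and 3.93% in SCD1-KO cells. Nothing is read from these counts. The median over the 31 was -0.16 on the log2 scale under T-3764518 and 0.01 for SCD1-KO cells. The 7 further genes that acylate glycerol 3-phosphate and its product had 3 log2 ratios above and 4 below 0 under T-3764518, and 5 above and 2 below 0 in SCD1-KO cells. All tested genes split as 5051 above and 7268 below 0 under T-3764518, and 6024 and 6297 in SCD1-KO cells. Among the 7, GPAT3, a GPAT of the endoplasmic reticulum, had a signal of 2908 under T-3764518, 2034 in SCD1-KO cells and 1203 under DMSO (log2 ratios 1.27 and 0.76). GPAT2, a mitochondrial paralog of GPAM, went the other way, at 1038 under T-3764518, 390.1 in SCD1-KO cells and 1645 under DMSO (log2 ratios -0.66 and -2.08, and 1.41 between T-3764518 and SCD1-KO cells). Of GPAM, GPAT2 and GPAT3, the first pair had their highest signal under DMSO and GPAT3 its lowest. Each of GPAT2 and GPAT3 was read by 1 probe set.

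Of 2 tested genes of glycerol supply, AQP3, a channel for water and glycerol, was called lower under T-3764518 and not in SCD1-KO cells. Its 3 probe sets had log2 ratios of -1.57, -0.79 and -1.07 under T-3764518 and of -0.18, -0.43 and -0.95 in SCD1-KO cells. All lay below 0, and the brightest of them differed most between the ratios. Of 10 tested genes of the droplet coat and its assembly, TMT1A (METTL7A), a methyltransferase found at the endoplasmic reticulum and droplets, was called lower under T-3764518 at a median log2 ratio of -1.03, but its 3 kept probe sets gave -1.16, -1.03 and 0.45. After each of the 3 other scalings neither AQP3 nor TMT1A was called. CIDEC, which fuses droplets, had a signal of 149.8 under T-3764518, 187 in SCD1-KO cells and 93.4 under DMSO, just under the call in SCD1-KO cells. Of 4 further phosphatidate phosphatases none was called in the ratios to DMSO. The farthest from 0 was PLPP3, a phosphatase at the cell surface, at log2 ratios of -0.75 under T-3764518 and 0.53 for SCD1-KO cells, and it was called lower between T-3764518 and SCD1-KO cells, at -1.49. All 3 of its probe sets had their lowest signal under T-3764518 and their highest in SCD1-KO cells. Of 7 tested genes of lipolysis none was called in any of the 3 ratios, and ABHD5, the coactivator of ATGL, had log2 ratios of 0.10 and -0.01. The farthest from 0 was PNPLA3, a droplet protein related to ATGL, at 0.92 under T-3764518 and at 0.72 for SCD1-KO cells. One of its 2 probe sets had a DMSO signal of 38.5, under the filter level, and with that signal raised to 56.6 PNPLA3 was at 0.64 and 0.45. In SCD1-KO cells DDHD2, a lipase, at -0.68, was then farther from 0. The 1 tested gene of the acylglycerol acyltransferases, TMEM68, was at 0.01 and -0.21.

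**Figure D3:**
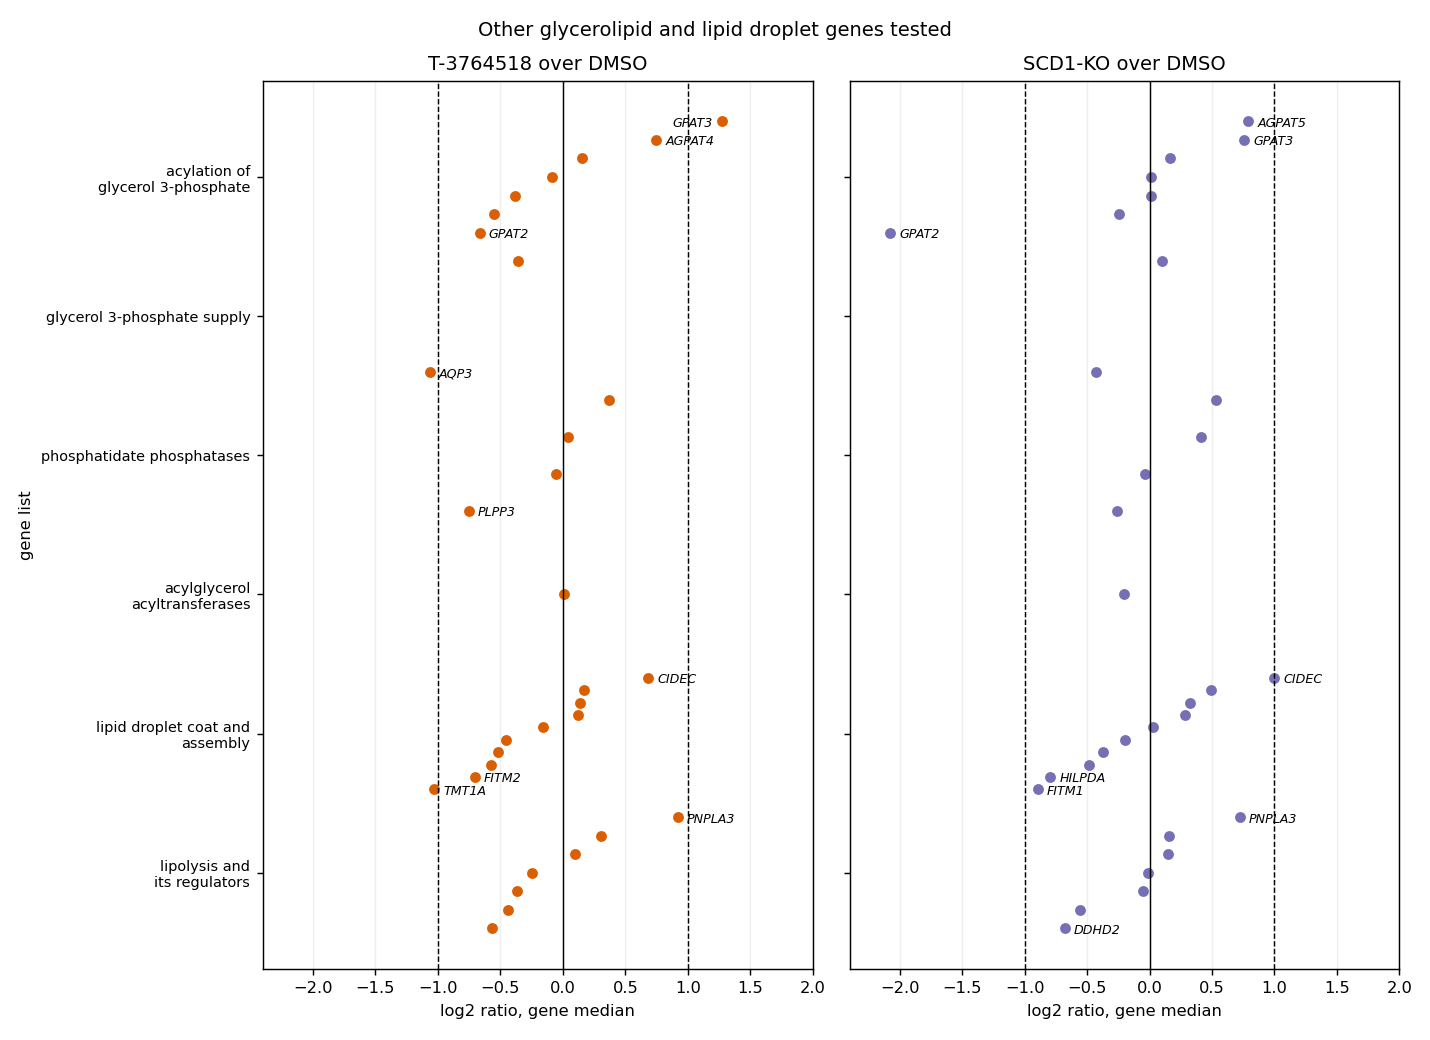
Log2 ratio of each of the 31 further genes tested, as gene medians, by list, for T-3764518 over DMSO (left) and SCD1-KO over DMSO (right); dashed lines mark 2-fold and names are given for ratios beyond 0.65. GPAT3 under T-3764518 (1.27) and GPAT2 in SCD1-KO cells (-2.08) are the farthest from 0.

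The calls differed in how they held over 10 other ways of scaling, filtering or summarising the probe sets. LPIN1 was called higher under all 10 in both ratios, at log2 ratios from 1.51 to 1.87 under T-3764518 and from 1.32 to 1.71 in SCD1-KO cells. MGLL was called higher for T-3764518 over DMSO under all 9 that kept it, from 1.01 to 1.34. DGAT2 was called lower for the same ratio under all 8 that kept it, from -1.30 to -1.02. Some of these settings could not move a gene and only repeated its value. For MGLL and DGAT2 they were no filter, the floor and the mean probe set. For LPIN1 they were no filter, the floor and no probe sets marked _s_at or _x_at, and for LIPE the brightest and the mean probe set. LIPE was called lower in 5 of 8 settings for T-3764518, from -1.28 to -0.43, and in 5 of 8 for SCD1-KO cells, from -1.16 to -0.75. By its gene median no member reached 3-fold in either ratio, though the brightest LPIN1 probe set did in both.

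**Figure D4:**
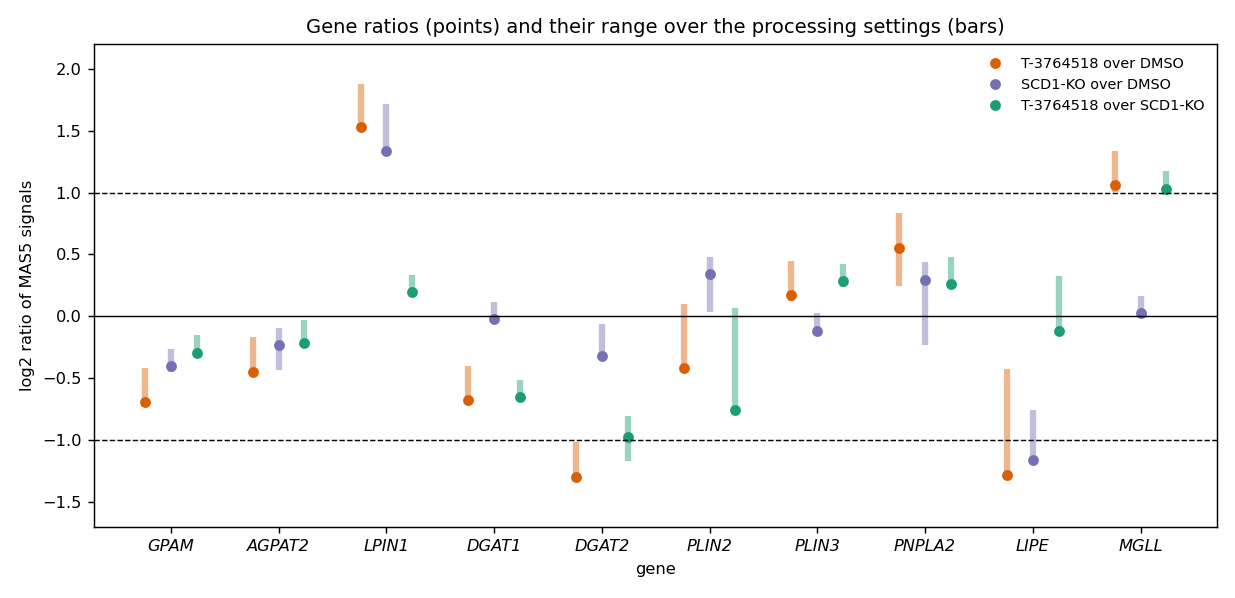
Log2 ratio of each gene (points) and its range over the processing settings (bars), for T-3764518 over DMSO, SCD1-KO over DMSO and T-3764518 over SCD1-KO; dashed lines mark 2-fold. The bars of LPIN1 lie above 1 in both ratios to DMSO, while under T-3764518 the widest bars are those of LIPE, from -1.28 to -0.43, and PNPLA2, from 0.25 to 0.83.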

How the data were processed

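Total RNA of HCT-116 cells was hybridised to Human Genome U133 Plus 2.0 arrays, 1 per group. The authors deposited 1 signal intensity per probe set on a linear scale for 54675 probe sets, made with MAS5 by the submitters' processing notes (version not stated). That method corrects each array for local background and brings the arrays to a common mean. Its detection calls were not used here. The number of arrays limits the precision.

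Ratios were computed in pandas 2.3.3 and numpy 2.4.6 under Python 3.11.15, the lowess correction in statsmodels 0.14.6, and figures in matplotlib 3.10.9. The platform annotation gave the gene names (41097 with 1 gene symbol, of which 41043 matched RefSeq by gene ID), and 62 control probe sets were not used for genes. A gene was called at 2-fold in either direction. The SD between probe sets was pooled over genes with several kept probe sets in 5 bins of signal. Gene values and calls were tested on simulated data, with the same noise at every signal and planted changes larger than those of the 10 genes. The simulation therefore does not cover calls near 2-fold or at low signal. The 10 genes and the lists were chosen with earlier results of these data known. The genes named beside the members were those called in either ratio to DMSO and, in a list with none, the gene farthest from 0. ABHD5, LPIN2, GPAT4, CIDEC, DDHD2 and the genes under the filter were named after their values were seen. The alternatives were 3 scalings, 2 filters, an offset of 16.5 added to every signal, a floor at 56.6, the brightest or the mean probe set, no probe sets marked _s_at or _x_at, and calls at 1.5-fold or at 3-fold instead of 2-fold.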

Additional observations from a re-analysis of the deposited data

How the results depend on the processing

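With 1 array per group no array could be left out, and no paired analysis was possible because each group had 1 array. Of 279 ratios of the 10 genes under alternatives, 268 moved by less than the SD between probe sets, and no called ratio changed sign. Many of the 279 could not move, such as those of DGAT1 and PLIN3 under another filter, the floor or another summary of the probe sets. The count is therefore not a measure of stability. Scaling to 1 median raised the median of all genes by 0.28 on the log2 scale under T-3764518. In SCD1-KO cells it raised it by 0.14. This moves every gene by the same amount, so it changes no gene relative to the others. Members called lower under T-3764518 numbered 2, but 1 after scaling to 1 median (LIPE at -0.999), without the filter or with the floor, 0 with the filter at percentile 75 or without probe sets marked _s_at or _x_at (which drop DGAT2 and LIPE), and 4 at 1.5-fold. Members called lower in SCD1-KO cells numbered 1, but 0 without the filter, with the percentile 75 filter, the offset or the floor, or without those probe sets. Members called higher under T-3764518 numbered 2, but 1 with the percentile 75 filter, which drops MGLL. At 3-fold the counts of members were 0 in both directions and both ratios. The members' median log2 ratio under T-3764518 was -0.43, but -0.15 after scaling to 1 median, 0.10 with the percentile 75 filter, -0.18 from the brightest probe sets and 0.33 without those marked _s_at or _x_at, where fewer genes were left.

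For the other glycerolipid genes, the count higher under T-3764518 was 1, but 2 after quantile normalization or the lowess correction, with the percentile 75 filter or from the brightest probe sets, 3 after scaling to 1 median or without the filter, 0 without probe sets marked _s_at or _x_at, and 4 at 1.5-fold. The count lower under T-3764518 was 2, but 0 after each of the 3 scalings or with the offset, 1 with the percentile 75 filter, the mean of the probe sets or without those marked, and 5 at 1.5-fold. In SCD1-KO cells the count higher was 0, but 1 after each of the 3 scalings, 6 without the filter and 4 at 1.5-fold. The count lower was 1, but 3 without the filter and 4 at 1.5-fold. Without the filter the counts are over 43 genes, including those with no probe set kept by it. They are over 24 genes with the percentile 75 filter and over 26 without the marked probe sets. Of all 12321 genes kept by the filter, 385 were higher and 484 lower in SCD1-KO cells. Without it, 1783 of 19775 were higher and 2988 lower. Counts with and without the filter are therefore not comparable. At 3-fold the counts under T-3764518 were 0 in both directions. Unless a cause is named, the cause was not tested.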

Other observations

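The listed genes with no probe set kept by the filter had signals near the lower end of the arrays. G0S2, an inhibitor of ATGL, had a signal of 22 under T-3764518 against 2.76 in SCD1-KO cells and 5.2 under DMSO. The LPIN1 paralog LPIN3 was at 47.3 under T-3764518, at 62.2 in SCD1-KO cells and at 10.8 under DMSO. MOGAT1, which acylates monoacylglycerol, was at 9.30 under T-3764518, at 5.91 in SCD1-KO cells and at 39.9 under DMSO. FABP4, the fatty acid binding protein of adipocytes, has a pair of probe sets, at 10.1 and 7.70 under T-3764518, at 47.3 and 19.1 in SCD1-KO cells and at 7.10 and 5.00 under DMSO. No fold is given for signals this low.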
